A study of Mus musculus with 7 samples.

Results

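The natriuretic peptide system was followed here through 8 genes of the mouse embryonic left ventricle, chosen by gene symbol from the 23337 symbols of the deposited count table. They were the peptide genes Nppa, Nppb and Nppc, the processing enzymes Corin and Furin, and the receptors Npr1, Npr2 and Npr3. Poly(A) RNA was sequenced from left ventricles dissected from 7 embryos at E12.5, whose mothers had been given tamoxifen at E11.5. Of these, 2 were labelled mutant, Tbx5flox/flox, and 5 were controls, Tbx5+/+. All 7 carried the Cre allele Gt(ROSA)26Sortm1(cre/ERT2)Tyj, which tamoxifen activates, and the groups differed in whether the Tbx5 alleles carried loxP sites. The Rosa26 locus is active in nearly all cell types, so this Cre is not limited to heart muscle. TBX5 is a heart transcription factor of the T-box family, and the comparison asked which ventricular transcripts depend on it.

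Natriuretic peptides are made as precursors, cut by proteases, and act through the second messenger cGMP. Nppa encodes atrial natriuretic peptide (ANP) and Nppb B-type natriuretic peptide (BNP), the hormones of heart muscle, while Nppc encodes C-type natriuretic peptide (CNP), made mainly by endothelium and in cartilage. Corin, a membrane protease of heart muscle, cuts the ANP precursor, and furin, a protease of the secretory pathway, cuts the BNP and CNP precursors. Npr1 encodes the guanylyl cyclase receptor for ANP and BNP, Npr2 the one for CNP, and Npr3 the clearance receptor, which takes up all these peptides. In the embryonic heart Nppa marks the atria and the trabeculae of the ventricles, and Npr3 is known from endocardium.

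Nppb and Nppa lie next to each other on chromosome 4 (GRCm38, the assembly also called mm10), both on the plus strand. Nppb spans chr4:147985786-147987205 and Nppa spans chr4:148000722-148002074. The RefSeq windows from 250 bases before to 50 bases after the start site are printed for this pair because the neighbours differed in the comparison between genotypes. The Nppa window is chr4:148000472-148000771 and the Nppb window is chr4:147985650-147985949, and the start site used for Nppb lies 114 bases inside the annotated gene. Capitals mark matches on either strand to the T-box letters AGGTGT and GGTGTGA, the GATA letters AGATAA and TGATAA, and the NKX2-5 letters AAGTG.

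Nppa: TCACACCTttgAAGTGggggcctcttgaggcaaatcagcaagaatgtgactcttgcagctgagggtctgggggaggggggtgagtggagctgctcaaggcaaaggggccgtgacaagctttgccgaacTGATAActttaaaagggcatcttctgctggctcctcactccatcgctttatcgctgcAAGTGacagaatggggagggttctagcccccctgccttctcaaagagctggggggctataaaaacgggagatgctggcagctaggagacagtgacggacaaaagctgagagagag

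Nppb: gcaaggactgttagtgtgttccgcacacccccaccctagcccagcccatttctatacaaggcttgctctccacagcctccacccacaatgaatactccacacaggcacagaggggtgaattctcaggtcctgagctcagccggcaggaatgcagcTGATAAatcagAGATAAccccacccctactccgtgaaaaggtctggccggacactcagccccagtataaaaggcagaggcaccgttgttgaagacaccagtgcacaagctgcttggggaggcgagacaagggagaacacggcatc

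The Nppa window opens with a match to both T-box spellings on the opposite strand, the overlapping matches covering bases 1 to 8, while the Nppb window holds neither. AGGTGT occurred in 12.8% and GGTGTGA in 3.75% of the 19069 RefSeq windows of genes in the count table. TGATAA, found in 7.12% of windows, was present in both windows of the pair, and AGATAA, found in 9.54%, in that of Nppb and not in that of Nppa. AAGTG, held by 44.8% of all windows, occurred at 2 places in the Nppa window and at none in the Nppb window. Among the other members AGGTGT was found in the window of Npr2. These matches describe the letters of the windows and are not measured binding sites.

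Library totals were 20268208 and 22680280 counts in the libraries labelled mutant and 20385656 to 24440806 in the controls. Tbx5 itself was at 93.8 and 114 CPM (read counts relative to the scaled library total) in the libraries labelled mutant and 64.2 to 98.3 CPM in the controls. The deposited count is for the gene as a whole, so it does not check the deletion, and the genotypes rest on the labels. Xist, which coats the inactive X chromosome, was at 380 and 509 CPM in the libraries labelled mutant, at 0.689 and 1.09 CPM in control replicates 1 and 3, and at 311 to 477 CPM in the other controls. Control replicate 5 stood apart from the other controls, with chi-square values of the counts of 20 to 33.6 per degree of freedom against each of them, where the other control pairs gave 10.5 to 17.4. The 2 libraries labelled mutant differed from each other by 27 on the same measure, which cannot say which of them is unusual, so results that rest on either one are given without it. A fit without a mutant library leaves 1 in that group, takes its spread from the controls, and assumes that the lone library varies as they do. Litters are not given in the labels, and the p-values measure only the spread between these samples. In whole-tissue RNA, fewer cells of a type and less RNA per cell cannot be told apart.

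Per exon length, Nppa was by far the most abundant member. It was at 1838 ± 51.1 RPKM (CPM divided by exon length in kilobases, SD, n = 2) in the libraries labelled mutant and 2059 ± 476 RPKM (SD, n = 5) in the controls. By CPM it ranked 43 and 41 among all genes of the table in the libraries labelled mutant and in the controls. Nppb came next, at 86.3 ± 4.52 RPKM in the libraries labelled mutant and 201 ± 18.1 RPKM in the controls, with the same numbers of libraries. On the mean RPKM scale the level of Nppa was thus 21.3 times that of Nppb in the libraries labelled mutant and 10.2 times in the controls. Furin, Npr3 and Corin followed between 7.25 and 19.5 RPKM in single libraries labelled mutant and between 6.27 and 13.9 RPKM in single controls, and neighbours in this order overlapped in range. Npr2 and Npr1 lay lower, between 2.88 and 4.21 RPKM in the libraries labelled mutant and between 2.54 and 4.99 RPKM in the controls, and also overlapped each other. Nppc was last, at up to 0.21 RPKM in the libraries labelled mutant and up to 0.76 RPKM in the controls. The exon length joins all annotated exons, which understates genes with long, rarely used exons.

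**Figure D1:**
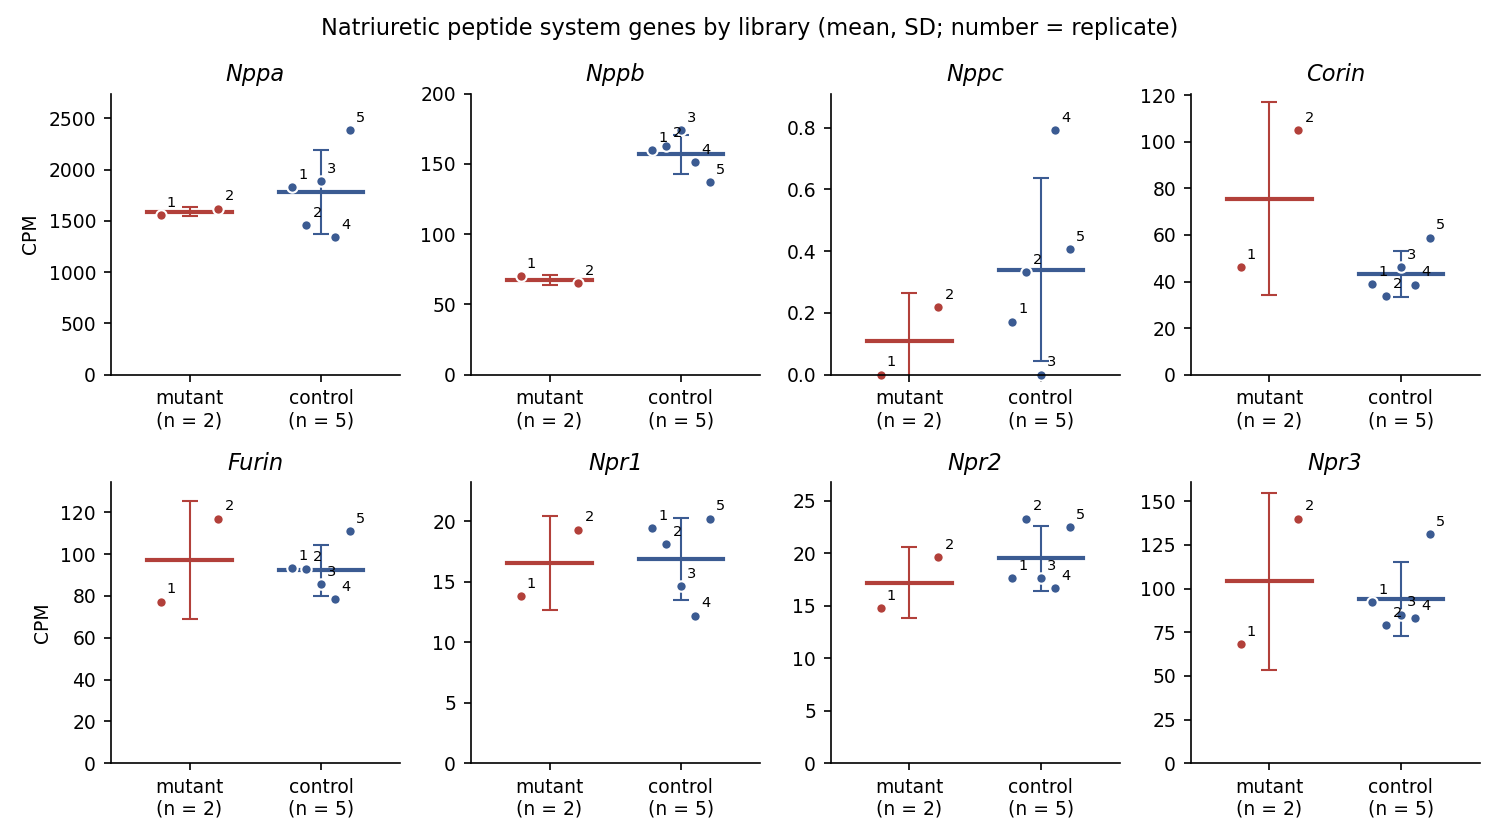
Level of each member in CPM (vertical axes, from 0) in the 2 libraries labelled mutant (red, left) and the 5 controls (blue, right). Each point is 1 library with its replicate number, horizontal lines are group means and error bars SD. Nppb is the member whose groups lie apart, at 64.9 and 69.9 CPM in the libraries labelled mutant against 137 to 174 CPM in the controls.

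Nppb, the BNP gene, was the 1 member called by the edgeR quasi-likelihood test: its transcript fell in the libraries labelled mutant, to 0.429 times its control level. Its counts were 1411 and 1484 in the libraries labelled mutant and 3707, 3444, 3841, 3046 and 3363 in control replicates 1 to 5. In CPM these were 69.9 and 64.9 in the libraries labelled mutant and 160, 163, 174, 151 and 137 in the controls. Both libraries labelled mutant were low, and the lowest control was still 1.96 times the higher of them. Group means were 67.4 ± 3.53 CPM in mutant (SD, n = 2) and 157 ± 14.1 CPM (SD, n = 5) in the controls. Its log2 fold change, -1.22, had a standard error (SE) of 0.11, a 95% interval of -1.46 to -0.98 and an adjusted p of 0.00208 (edgeR quasi-likelihood test, Benjamini-Hochberg over the 14691 genes tested). Of the 7 members tested 1 passed, where 1.36% of all tested genes did, 0.463% as higher and 0.899% as lower. The groups lay apart without overlap for this member alone, as they did in 20.2% of all tested genes, 9.73% with both libraries labelled mutant above every control and 10.4% with both below. Nppb passed in each of 19 alternative fits, with log2 fold changes of -1.27 to -1.16. These include the fits without a mutant library, where the controls alone supply the spread. The authors' deposited table lists it at a log2 fold change of -1.23 with a false discovery rate of 3.04e-17.

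Nppa, the ANP gene, did not pass the test. Its counts were 31467 and 37069 in the libraries labelled mutant and 42490, 30728, 41663, 27114 and 58666 in control replicates 1 to 5. In CPM the libraries labelled mutant were at 1559 and 1621 and the controls at 1828, 1458, 1891, 1341 and 2386. Both libraries labelled mutant lay inside the control range, above control replicates 2 and 4 and below the other 3. The log2 fold change was -0.16 (SE 0.19, adjusted p = 0.698 by the edgeR quasi-likelihood test), with a 95% interval of -0.59 to 0.26 that still holds a fall of moderate size. That interval does not reach the log2 fold change of Nppb. The controls spread more for Nppa than for Nppb, with a coefficient of variation of 23.1% for Nppa and 8.99% for Nppb. The antisense gene Gm13054 of the GENCODE annotation overlaps Nppa and has no row in the table, and the library kit did not mark strand, so its reads cannot be told apart from those of Nppa. Npr1, Npr2, Corin and Furin likewise have annotated antisense partners. Npr3 is overlapped by Gm5144 on the opposite strand, which also has no row, and Nppb has no overlapping gene.

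The divergence of the neighbours was read within each library as the ratio of their counts, which does not depend on how libraries are scaled. For each Nppb read there were 22.3 and 25 Nppa reads in the libraries labelled mutant, and 8.9 to 17.4 in the controls. Nppb thus held 4.29% and 3.85% of the reads of the pair in the libraries labelled mutant and 8.02%, 10.1%, 8.44%, 10.1% and 5.42% in control replicates 1 to 5. Exact 95% binomial intervals, which cover counting error only, were 3.66% to 4.52% over the libraries labelled mutant and began at 5.24% in control replicate 5, the nearest control. The groups did not overlap, but control replicate 5, where Nppa was highest and Nppb lowest among the controls, lay 0.35 on the log2 scale from the nearer mutant library. The mean log2 ratio of Nppb to Nppa was -4.56 ± 0.12 (SD, n = 2) in the libraries labelled mutant and -3.48 ± 0.40 (SD, n = 5) in the controls, a difference of -1.08. A two-sided exact permutation test over the 21 groupings gave p = 0.0476, the smallest value this design allows. The pair had been chosen with the fall of Nppb already known, so this p describes the separation and adds no independent support. The difference lay between -1.24 and -1 with any 1 library left out, where no grouping can reach the threshold.

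**Figure D2:**
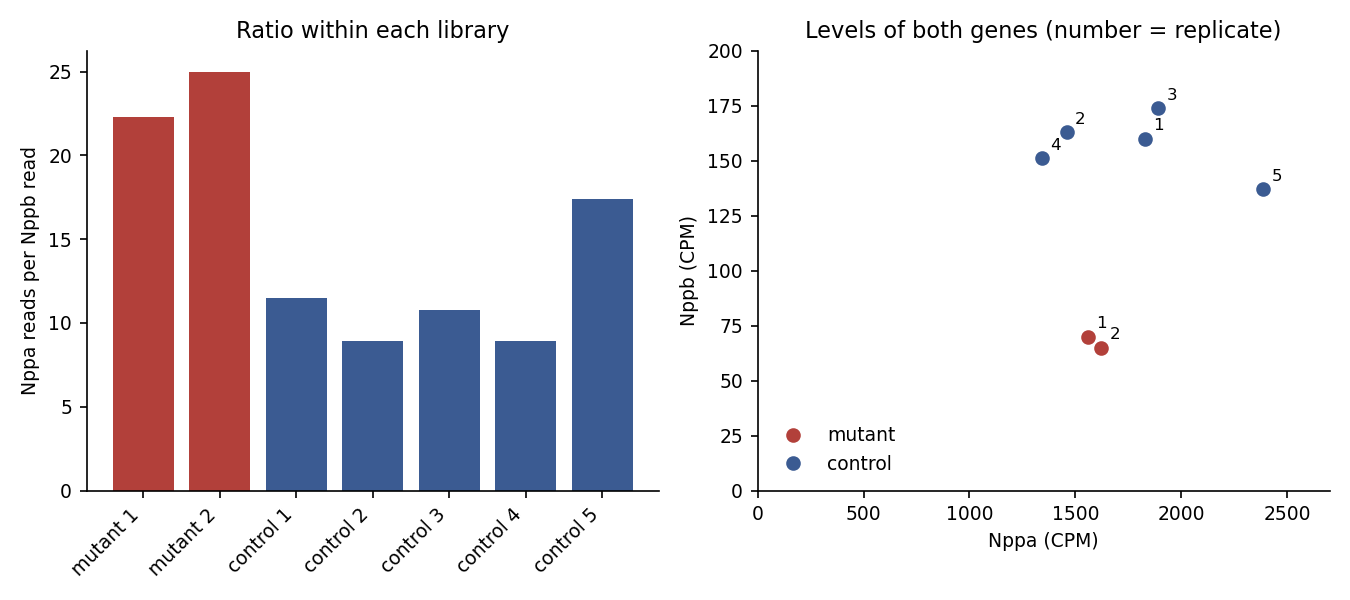
Left, Nppa reads per Nppb read in each library (bars from 0), at 22.3 and 25 in the libraries labelled mutant (red) and 8.9 to 17.4 in the controls (blue). Right, Nppb against Nppa in CPM, each point 1 library with its replicate number: the libraries labelled mutant sit inside the control range along the Nppa axis and below it along the Nppb axis.

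Nppc was close to the limit of detection in every library and did not pass the filter on low counts, so it was not tested. It had 0 and 5 reads in the libraries labelled mutant and 4, 7, 0, 16 and 10 reads in the controls. The counts of the groups overlapped, and control replicate 4 was the highest. A count of 0 in mutant replicate 1 allows up to 0.149 CPM and in control replicate 3 up to 0.136 CPM. A difference in CNP transcript between genotypes was not detectable at this depth.

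Of the processing enzymes, Corin was the member with the largest positive log2 fold change, and its value rested on 1 library. It was at 46.2 and 105 CPM in the libraries labelled mutant and at 39.0, 33.8, 46.1, 38.7 and 58.9 CPM in control replicates 1 to 5. Mutant replicate 2 was above every control, and mutant replicate 1 was level with control replicate 3 and below control replicate 5. The log2 fold change was 0.81 (SE 0.29, adjusted p = 0.197 by the edgeR quasi-likelihood test), with a 95% interval of 0.16 to 1.46. Without mutant replicate 2 it was 0.10 (adjusted p = 0.952), and without mutant replicate 1 it was 1.28 and passed (adjusted p = 0.0406), both by the same test with the spread taken from the controls alone. With control replicate 5 and mutant replicate 2 left out together it was 0.24 (adjusted p = 0.538, edgeR quasi-likelihood). The authors' deposited table lists Corin at a log2 fold change of 0.80 with a false discovery rate of 0.021, while the DESeq2 Wald test (0.229), limma-voom (0.24) and the edgeR likelihood ratio test (0.0797), given as adjusted p, did not call it.

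Furin was at 77.3 and 117 CPM in the libraries labelled mutant and at 93.3, 92.8, 85.8, 78.5 and 111 CPM in control replicates 1 to 5. The libraries labelled mutant lay on either side of the control range, 1 just below and 1 just above. The log2 fold change was 0.07 (SE 0.16, adjusted p = 0.853, edgeR quasi-likelihood) with a 95% interval of -0.28 to 0.43, and it was -0.24 without mutant replicate 2.

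The receptors did not pass the test either, and the libraries labelled mutant straddled the controls or lay among them. Npr1, the ANP and BNP receptor, was at 13.8 and 19.3 CPM in the libraries labelled mutant and at 19.4, 18.1, 14.6, 12.2 and 20.2 CPM in control replicates 1 to 5. Npr2, the CNP receptor, was at 14.8 and 19.6 CPM in the libraries labelled mutant and at 17.6, 23.3, 17.6, 16.7 and 22.5 CPM in the controls. For Npr1 both libraries labelled mutant lay inside the control range, and for Npr2 mutant replicate 1 lay below every control and mutant replicate 2 among them. The log2 fold change of Npr1 was -0.03 (SE 0.20) with a 95% interval of -0.48 to 0.42, and that of Npr2 was -0.18 (SE 0.17) with an interval of -0.55 to 0.19. Npr3, the clearance receptor, was at 68.1 and 140 CPM in the libraries labelled mutant and at 92.2, 79.1, 85.1, 82.9 and 131 CPM in control replicates 1 to 5. Mutant replicate 1 was below every control and mutant replicate 2 above every control. Its log2 fold change was 0.15 (SE 0.27) with a 95% interval of -0.46 to 0.75. It turned to -0.45 without mutant replicate 2 and was 0.58 without mutant replicate 1. Adjusted p lay between 0.609 and 0.958 for the 3 receptors in the edgeR quasi-likelihood test.

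**Figure D3:**
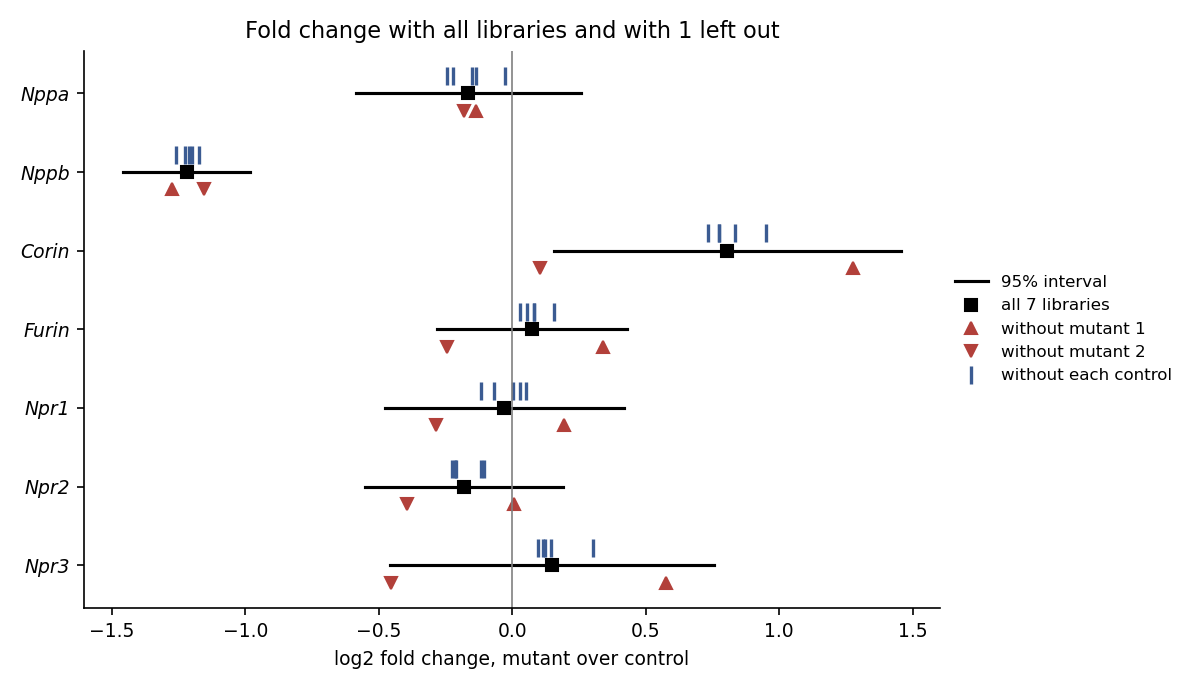
Log2 fold change of mutant over control for the 7 tested members (horizontal axis), with all 7 libraries (black square, 95% interval as a line), without mutant replicate 1 or 2 (red triangles) and without each control (blue ticks). The symbols of Nppb stay between -1.27 and -1.16, whereas those of Corin run from 0.10 to 1.28 and those of Npr3 from -0.45 to 0.58.

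Npr3, Corin and Furin differed between libraries of the same genotype. Mutant replicate 2 exceeded mutant replicate 1 by 2.28 times for Corin, 2.06 times for Npr3, 1.51 times for Furin, 1.40 times for Npr1 and 1.33 times for Npr2. Control replicate 5 exceeded the mean of control replicates 1 to 4 by 1.54 times for Npr3, 1.5 times for Corin, 1.27 times for Furin, 1.26 times for Npr1 and 1.2 times for Npr2. Nppa was 1.04 times as high in mutant replicate 2 as in mutant replicate 1, and 1.46 times as high in control replicate 5 as in the mean of the other controls. Nppb was lower in both of these libraries, at 0.929 times mutant replicate 1 and 0.844 times the mean of the other controls. Over the 7 libraries, which share depth and scaling, Pearson's r of log2 CPM was 0.933 for Npr3 with Furin, 0.801 for Npr3 with Corin, 0.166 for Nppa with Nppb and -0.70 for Nppb with Corin, given as a description.

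Most endocardial and endothelial markers were also high in mutant replicate 2 and control replicate 5. Of 14 markers, 11 were higher in mutant replicate 2 than in mutant replicate 1, 10 had their highest control value in control replicate 5, and 10 did both. The pattern was not limited to this list. Both held for 5 of 10 trabecular, 5 of 15 atrial, 4 of 8 erythroid, 2 of 10 ventricular muscle and 1 of 8 compact layer markers. They held for 0 of the cushion, epicardial, macrophage and neural crest markers, and the share over all genes was not counted. The summed level of the 14 markers was 951 and 1354 CPM in the libraries labelled mutant and 1004 to 1446 CPM in the controls, with mutant replicate 1 below every control and the highest values in mutant replicate 2 and control replicate 5. None of the 14 was at 0 in all libraries, and none was called between genotypes in the edgeR quasi-likelihood test, with 2 at an unadjusted p under 0.05. Kdr, a receptor of endothelial growth factor, was at 51.1 and 100 CPM in the libraries labelled mutant and at 62.1 to 107 CPM in the controls. Other markers did not follow: Cldn5, of endothelial tight junctions, was at 12.3 and 8 CPM in the libraries labelled mutant and at 10.5 to 16.7 CPM in the controls, and Emcn, an endothelial surface sialomucin, at 80.9 and 74.4 CPM in the libraries labelled mutant and at 71.9 to 90 CPM in the controls. The part of these cells in the levels of Npr3, Corin and Furin was not tested.

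**Figure D4:**
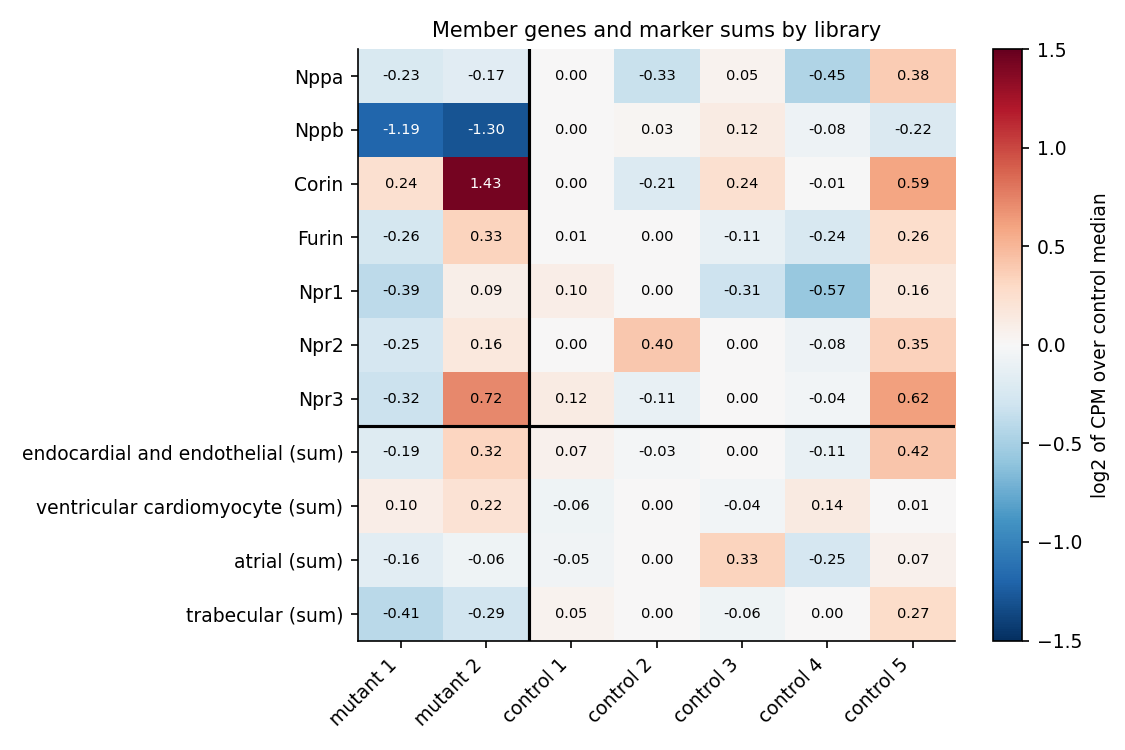
Levels of the 7 tested members and of 4 summed marker lists in each library (columns, libraries labelled mutant left of the line), as log2 of CPM over the median of the controls (colour and printed value). Nppb is low in both libraries labelled mutant, at -1.19 and -1.30, while Npr3, Corin, Furin and the endothelial sum are high in mutant replicate 2 and control replicate 5.

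Markers of the muscle regions where the peptides are made gave these values beside Nppb and Nppa. For comparison with the counts below, 0.463% of all tested genes were called higher and 0.899% lower, and 17.6% had an unadjusted p under 0.05 (edgeR quasi-likelihood). The 10 ventricular muscle markers, among them Tnnt2 and Myh7, were abundant in every library and summed to 43980 and 47725 CPM in the libraries labelled mutant and 39162 to 45196 CPM in the controls, with none called by the edgeR quasi-likelihood test, 8 at an unadjusted p under 0.05 and a median log2 fold change of 0.34. They did not run together: Myh7, a myosin heavy chain, was at 11646 and 14860 CPM in the libraries labelled mutant, above the 7715 to 10244 CPM of the controls, and Myl2, the ventricular myosin light chain, at 6261 and 5724 CPM in the libraries labelled mutant, below the 7430 to 10779 CPM of the controls. The 10 trabecular markers summed to 751 and 821 CPM in the libraries labelled mutant, below the 959 to 1210 CPM of the controls, but 5 had positive and 5 negative log2 fold changes, with a median of -0.02. Smpx and Cited1, at 384 to 423 CPM and 169 to 172 CPM in the libraries labelled mutant, held most of that sum and were at 434 to 509 CPM and 204 to 345 CPM in the controls. Of those 10, 1 was called lower, Gja5, which encodes the gap junction protein connexin 40, at 31.7 and 50.1 CPM in the libraries labelled mutant and 86.9 to 206 CPM in the controls (adjusted p = 0.0471, edgeR quasi-likelihood). The Gja5 call held in 11 of 19 alternative fits. It was lost without control replicate 1 (0.0641) or control replicate 2 (0.0801), with library totals only (0.0535) and with no filter (0.109), given as adjusted p of the same test. Leaving out either library labelled mutant also ended it. The 15 atrial markers summed to 4508 and 4808 CPM in the libraries labelled mutant and 4230 to 6316 CPM in the controls, with 7 of 15 called lower and none higher. Myl4 and Pam held most of that sum. Myl4 was at 2894 and 2678 CPM in the libraries labelled mutant and 2314 to 3528 CPM in the controls. Pam was at 970 and 1481 CPM against 944 to 1394 CPM. Both libraries labelled mutant lay below every control for 8 of the 15 and above for 0, against 10.4% and 9.73% of all tested genes. Sums of cushion mesenchyme and fibroblast markers, at 1932 and 2264 CPM, and of macrophage markers, at 200 and 137 CPM, lay below the controls. The controls were at 3040 to 5009 CPM and 211 to 291 CPM, and 6 of 12 and 3 of 11 markers were called lower. Epicardial markers gave 424 and 305 CPM in the libraries labelled mutant and 407 to 588 CPM in the controls, with 1 of 10 called lower. Compact layer markers gave 1170 and 1317 CPM against 1225 to 1479 CPM, with 1 of 8 called lower. Erythroid markers gave 5908 and 6269 CPM in the libraries labelled mutant and 4560 to 10025 CPM in the controls, and neural crest markers 11.4 and 11.9 CPM against 9.62 to 14.8 CPM, with none called in either list by the edgeR quasi-likelihood test, where 0 erythroid and 1 neural crest marker had an unadjusted p under 0.05. Without mutant replicate 2 the numbers called lower were 1 of the atrial markers and 0 of the trabecular, cushion, macrophage, epicardial and compact lists, and without mutant replicate 1 they were 3 atrial, 1 cushion, 3 macrophage and 0 trabecular. Without control replicate 1 or 2 they were 4 atrial, 0 macrophage, 0 trabecular, 1 epicardial and 1 compact. Of the cushion markers 5 were called lower without control replicate 1 and 4 without control replicate 2. The part of these cell populations in the fall of Nppb was not tested.

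Around the pair, which was chosen with the fall of Nppb already known, Nppb had the largest change among the genes of the locus. The 6 genes of the table on each side, from Zfp933 to Fbxo44, had log2 fold changes of -0.33 to 0.51. Of these 12 genes 1 was called, against 1.36% of all tested genes. The called gene was Mfn2, which encodes the mitochondrial fusion protein mitofusin 2 and whose annotation begins at -112.2 kb from that of Nppb. It was higher, at 293 and 306 CPM in the libraries labelled mutant and at 199 to 235 CPM in the controls (log2 fold change 0.51, SE 0.09, adjusted p = 0.0248, edgeR quasi-likelihood). The Mfn2 call held in 14 of 19 alternative fits, with log2 fold changes of 0.48 to 0.56 over all 19. It was lost with Xist as a covariate and without control replicate 1 or 2 (0.0662 and 0.0725, adjusted p of the same test). Leaving out either library labelled mutant also ended it. The authors' deposited table lists Mfn2 at a log2 fold change of 0.5 with a false discovery rate of 0.00133. Clcn6, a chloride transporter gene and the nearest on the other side of Nppa, was at 0.25 (SE 0.19) on the log2 fold change scale, and 2510039O18Rik, the nearest before Nppb, at 0.05 (SE 0.13). For 3 of the 12 genes, Mfn2, Agtrap and Fbxo6, the groups did not overlap, against 20.2% of all tested genes.

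Other genes of the pathway were read beside the shares over all tested genes, of which 1.36% were called. At that share, lists of this size would mostly hold no call. Of 12 other tested genes of peptide processing and clearance none was called by the edgeR quasi-likelihood test and 4 had an unadjusted p under 0.05, where 17.6% of all tested genes did, with a median log2 fold change of 0.06 against -0.0080 over all genes. The DESeq2 Wald test and the edgeR likelihood ratio test each called 2 of them, Fap and Ide, and limma-voom 0. Galnt2 and Galnt1, which begin O-linked glycans, were uncalled: Galnt2 averaged 178 ± 34.3 CPM in the mutant group and 150 ± 13.9 CPM in the controls, and Galnt1 159 ± 18.2 CPM in the mutant group and 155 ± 8.83 CPM in the controls (SD, n = 2 and n = 5). Ide, an insulin-degrading protease that also cuts ANP, was at 151 and 147 CPM in the libraries labelled mutant and at 115 to 126 CPM in the controls, with an adjusted p of 0.0757 (edgeR quasi-likelihood). Fap, a surface protease of fibroblasts named after its values were seen, was at 0.198 and 0.394 CPM in the libraries labelled mutant and at 0.94 to 2.50 CPM in the controls (adjusted p = 0.0654, edgeR quasi-likelihood). The authors' deposited table lists Fap at a log2 fold change of -2.26 with a false discovery rate of 0.00118, and does not list Ide.

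Of 26 other tested genes of cGMP production, breakdown and action, none was called by the edgeR quasi-likelihood test, against 1.36% of all tested genes. Of the 26, 7 had an unadjusted p under 0.05, against the same 17.6% of all tested genes. The median log2 fold change of the 26 was -0.07. The DESeq2 Wald test and the likelihood ratio test each called 2, Pde1a and Pde9a, and limma-voom 0. The subunits of the nitric oxide receptor, Gucy1a3 and Gucy1b3, were uncalled: Gucy1a3 averaged 143 ± 12 CPM in the mutant group and 168 ± 26.3 CPM in the controls, and Gucy1b3 127 ± 13.2 CPM in the mutant group and 153 ± 14.7 CPM in the controls (SD, n = 2 and n = 5). Vasp, an actin regulator and substrate of cGMP-dependent kinase, averaged 134 ± 8.84 CPM in the mutant group and 132 ± 11.6 CPM in the controls. Pde9a, a cGMP-selective phosphodiesterase described as acting on natriuretic peptide signals, was named after its values were seen. It was at 2.87 and 2.49 CPM in the libraries labelled mutant and at 4.40 to 6.10 CPM in the controls, with an adjusted p of 0.0509 (edgeR quasi-likelihood). That p was above the threshold by a small margin, and Pde9a was called in 6 of 19 alternative fits. The authors' deposited table lists Pde9a at a log2 fold change of -0.931 and Pde1a at -0.818, with false discovery rates of 0.00925 and 0.0104.

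Among 32 transcription factors and related genes described as regulators of the locus, 1 was called higher and 2 lower, against 0.463% and 0.899% of all tested genes. Of the 32, 16 had an unadjusted p under 0.05, against 17.6% of all tested genes. The median log2 fold change of the 32 was 0.14. Mef2c, a MADS-box factor, rose in the libraries labelled mutant, to 117 ± 8.76 CPM (SD, n = 2), against 85.3 ± 5.65 CPM (SD, n = 5) in the controls. Nfatc4, a calcineurin target, fell in the libraries labelled mutant, to 9.75 ± 0.555 CPM (SD, n = 2), against 17.5 ± 2.4 CPM (SD, n = 5) in the controls. Adjusted p was 0.0374 for Mef2c and 0.0273 for Nfatc4 in the edgeR quasi-likelihood test. The Nfatc4 call was lost without mutant replicate 1 or 2 (0.0809 and 0.195) or without control replicate 1 or 2 (0.0529 and 0.0691), and the Mef2c call without mutant replicate 2 (0.293) or control replicate 1, 2, 3 or 4 (0.0975, 0.0952, 0.071 and 0.0544). The number called was 0 without mutant replicate 2, 1 without mutant replicate 1 or control replicate 1 or 2, and 5 without control replicate 4 or 5, and it was 10 in the DESeq2 Wald test. The authors' deposited table lists Mef2c at a log2 fold change of 0.446 and Nfatc4 at -0.845.

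Tbx3 and Tbx2, T-box factors known as repressors of Nppa, were singled out after their values were seen. Tbx3 was at 1.54 and 3.41 CPM in the libraries labelled mutant and at 11.6, 15.4, 14.7, 4.55 and 10.3 CPM in control replicates 1 to 5. Tbx2 was at 7.28 and 5.12 CPM in the libraries labelled mutant and at 13.7, 14.5, 14.6, 9.05 and 11.4 CPM in the controls. Both libraries labelled mutant were below every control for each gene, with control replicate 4 nearest, and the adjusted p was 0.0711 for Tbx3 and 0.052 for Tbx2 (edgeR quasi-likelihood). The authors' deposited table lists Tbx3 at a log2 fold change of -2.19 and Tbx2 at -1.04, with false discovery rates of 2.45e-05 and 0.000728.

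The genes whose levels ran most like a member over the 7 libraries were searched among 12319 genes of at least 1 CPM by Pearson's r of log2 CPM, as a description. For Nppb they were Krt19 (r = 0.993), Gpr22 (0.989) and Smarce1 (0.986), and for Nppa they were Pcdhb14 (0.974), Gcc1 (0.972) and Vhl (0.97). Krt19 was at 54.6 and 47.8 CPM in the libraries labelled mutant and at 81.4 to 101 CPM in the controls, and like Nppb it was lowest among the controls in control replicate 5. The lists of the pair shared no gene, which the r of 0.166 between Nppa and Nppb fixed in advance, so this adds nothing about their divergence. Lists of other members included Pvr, Csgalnact1 and Fut11 for Npr3, St3gal5 and Wdr13 for Corin, and for Furin Plxnd1, Apba1 and Thsd1, with r of 0.98 to 0.99. For Npr1 they were Pcdhb17, Tnk2 and Ccdc9, and for Npr2 Phkg1, Erbb2 and Nfam1, with r of 0.956 to 0.986.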

How the data were processed

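Groups and replicate numbers came from the sample titles. The authors deposited whole-number read counts per gene symbol with no normalization, and a second table whose log2 fold change (read as base 2 because it lies near the fold changes fitted here), p-value and false discovery rate come from a test that its header does not name. The submitters' processing notes name mm10, limma 3.30.13, edgeR 3.16.5, R 3.3.2, featureCounts and TopHat2 2.1.1, with roles, annotation and strand setting not given in the sources used here.

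Tests here used edgeR 4.0.16 under R 4.3.3: filterByExpr (minimum count 10, minimum total 15) left 14691 of 23337 genes, TMM factors were 0.988 to 1.01, and glmQLFit with robust estimation and glmQLFTest used genotype alone. The adjusted p threshold was 0.05, by Benjamini-Hochberg over all tested genes. The SE is the log2 fold change over the square root of F. Log2 CPM used a prior count of 2, and RPKM used GENCODE M21 exon lengths. The test was checked on simulated data. Alternatives were DESeq2 1.42.0, limma-voom 3.58.1, other scalings and filters, left-out libraries, a replicate block and Xist as a covariate; the likelihood ratio test was added after seeing the data. Positions and promoters are from RefSeq GRCm38.p6, which matched all 8 members. The members and lists were chosen with earlier results of these data known. From each list the called genes were named, or the 3 most abundant where fewer than 3 were called, with 6 neighbours on each side of the pair and the 3 most alike genes per member. A few genes that this rule names are not reported here, though list counts include them.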

Additional observations from a re-analysis of the deposited data

Results flagged for a closer look

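Among the 5 controls, Npr3 had 1 library far from the others: control replicate 5, at 131 CPM, where the other controls were at 79.1 to 92.2 CPM. The gap took 0.748 of the range, above the critical share of 0.71 for 5 samples. Gucy1a3, a subunit of the nitric oxide receptor, was low in the same library, at 122 CPM against 175 to 189 CPM in the other controls, with a gap of 0.791 of the range. These were 2 of 38 groups of values examined, and chance flags about 1 in 20 groups.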

How the results depend on the processing

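The fall of Nppb held its direction and its call in all 19 alternative fits, with log2 fold changes of -1.273 to -1.156 when 1 library was left out, and Nppa stayed uncalled and negative in all 19, at -0.2431 to -0.0284 with 1 library left out. The number of members called was 1 in every alternative but the one without mutant replicate 1, where it was 2, with Corin added, so its range was 1 to 2. The ratio of Nppb to Nppa differed by -1.244 to -1 with 1 library left out. It differed by -1.162 without control replicate 5 and mutant replicate 2. Among the 5 libraries with Xist over 10 CPM it differed by -1.082 (exact permutation p = 0.2). All these designs are too small to pass. In the Xist set, genotype was also not the grouping with the largest difference. Control replicate 5, at a log2 ratio of -4.12, lay nearer to the libraries labelled mutant than to control replicates 2 and 4. The libraries labelled mutant were at -4.48 and -4.64 and those controls at -3.16 and -3.15.

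Counts of called genes moved more. All genes called numbered 786 with the DESeq2 Wald test, 773 with the likelihood ratio test, 114 with limma-voom, 632 with the replicate block, 60 with Xist as a covariate, 52 without control replicate 5 and mutant replicate 2, and 12 to 275 with 1 library left out. Regulators called numbered 10 with the DESeq2 Wald test, the likelihood ratio test or the replicate block, 7 with no filter, 1 with limma-voom or the Xist covariate, 0 without control replicate 5 and mutant replicate 2, and 0 to 5 with 1 library left out. Genes of the cGMP list called numbered 2 with the DESeq2 Wald test or the likelihood ratio test, 1 with upper-quartile scaling, no filter, the 1 CPM filter or the replicate block, and 0 to 1 with 1 library left out. Processing and clearance genes numbered 2 with the DESeq2 Wald test, the likelihood ratio test or the replicate block, 1 with no filter and 0 with any 1 library left out. Locus neighbours numbered 0 with the Xist covariate and 0 to 1 with 1 library left out.

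Directions of uncalled genes turned as follows. With control replicate 5 and mutant replicate 2 left out, Npr3 was -0.3079, Furin -0.1702, Galnt1 -0.0806, Zfp933 -0.0161, Plod1 -0.2403 and Clcn6 -0.1083. With Xist as a covariate Vasp was -0.0169, Plod1 -0.0118 and 2510039O18Rik -0.0084, with upper-quartile scaling Vasp was -0.0067 and Plod1 -0.0278, and with limma-voom Plod1 was -0.0132. With 1 library left out the ranges were -0.2851 to 0.1935 for Npr1, -0.3938 to 0.0077 for Npr2, -0.4548 to 0.5759 for Npr3, -0.2438 to 0.3405 for Furin, -0.0671 to 0.1557 for Galnt1, -0.0472 to 0.0976 for Vasp, -0.2764 to 0.2445 for Plod1, -0.1226 to 0.5485 for Clcn6 and -0.0097 to 0.1707 for Mad2l2. The causes were not tested. The replicate numbers are not stated to pair embryos, and only numbers 1 and 2 occur in both groups. Deviations of same-numbered libraries from their group means gave r of 0.0805 and 0.0247, so they did not clearly deviate together. Mutant replicate 2 with control replicate 5 gave 0.285. With 2 libraries labelled mutant, their deviations mirror each other, so these r are not independent checks. With the block, which uses replicates 1 and 2 of each group, Nppb was still the only member called, at a log2 fold change of -1.253. At these depths Nppc lies too low to compare.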
